A study of Mus musculus with 6 samples.

Results

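The 10 genes described here encode the elastic fibre of the mouse aorta: the elastin core (Eln), the microfibril proteins Fbn1, Mfap2, Mfap4 and Mfap5, the assembly and interface proteins Fbln5, Efemp2 and Emilin1, and the crosslinking enzymes Lox and Loxl1. They were taken by symbol from a table of 55487 genes. Each symbol had 1 identifier, and all 10 were among the 16139 genes with enough counts to be tested. RNA came from whole aorta, in 3 libraries of mice lacking Ogt, the gene of O-GlcNAc transferase, in their smooth muscle cells and 3 libraries of control mice that carry the floxed (LoxP) Ogt gene. Sample titles of both groups bear the prefix SM22, the protein name of the smooth muscle gene Tagln. The sources used here do not name the Cre driver, the age, sex or strain of the mice, or how many aortas a library holds, so p-values reflect library-to-library spread, which may be technical in part.

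Elastic fibres let the aorta stretch with each heartbeat and recoil. Smooth muscle cells of the media secrete tropoelastin, the soluble product of Eln, and it is deposited on a scaffold of fibrillin microfibrils. Fibulins bring tropoelastin, the microfibrils and the lysyl oxidases together, and lysyl oxidases join tropoelastin molecules through their lysine residues into an insoluble polymer. Most of this elastin is laid down around birth and turns over very slowly, so transcript levels in an aorta do not measure the amount of fibre in its wall.

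Of the 10 members, 1 fell in the knockout aorta at an adjusted p under 0.05 and 0 rose. The gene that fell was Mfap4. DESeq2 and limma-voom each called 2 members lower, Mfap4 and Fbn1, and 0 higher, with 10% and 5.16% of all tested genes called. Over all tested genes 1.56% were called lower and 1.9% higher by the same test, edgeR's quasi-likelihood test, with p-values adjusted after Benjamini and Hochberg over the 16139 genes. At an unadjusted p under 0.05 there were 2 members, Mfap4 and Fbn1, both lower, against 11.3% of all genes lower and 11.5% higher. Groups were compared library by library in counts scaled by trimmed mean of M values (TMM). The knockout libraries all lay below the control libraries for the 4 microfibril genes, Fbn1, Mfap2, Mfap4 and Mfap5, and all above them for Fbln5. Among all tested genes, groups lay apart in this way for 14.8% downwards and 16.9% upwards. The remaining 5 members, Eln, Efemp2, Emilin1, Lox and Loxl1, had overlapping groups. In the deposited FPKM, scaled by gene length and library total without TMM, Fbn1 and Mfap4 stayed apart but Mfap2, Mfap5 and Fbln5 overlapped. Control replicate 2 had 4.96 FPKM of Mfap2 and 30.0 of Mfap5, below 5.12 in knockout replicate 2 and 33.0 in knockout replicate 3. Fbln5 had 59.3 FPKM in knockout replicate 2 and 62.1 in control replicate 3. The median log2 fold change, knockout minus control, was -0.15 over the 10 members and -0.01 over all tested genes.

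The promoters shown are those of Fbn1, Mfap2 and Fbln5. In TMM-scaled counts, knockout libraries lay below the control libraries for Fbn1 and Mfap2 and above them for Fbln5. RefSeq promoter entries (build GRCm38.p6, 250 bases before to 50 after a start) were matched by symbol for 5 of the 10 members. Eln, Mfap4, Mfap5, Lox and Loxl1 had no matched entry. Where a gene had more than 1 entry, the one shown is that whose last bases were found in the sense strand of a GENCODE M21 transcript of the gene. Any window with exonic last bases passes this check, so it does not identify the start used in aorta. The Fbn1 and Fbln5 windows shown both lie inside the annotated genes, downstream of the annotated gene start. These genes span 125300594 to 125507993 for Fbn1 and 101746565 to 101819055 for Fbln5, both on the minus strand. The Fbln5 entry not shown (101819070 to 101819369) lies just upstream of the annotated Fbln5 gene. Sequences run 5′ to 3′ on the gene's own strand (minus for Fbn1 and Fbln5, plus for Mfap2), and capitals mark the motifs found.
Fbn1 chr2:125506389-125506688: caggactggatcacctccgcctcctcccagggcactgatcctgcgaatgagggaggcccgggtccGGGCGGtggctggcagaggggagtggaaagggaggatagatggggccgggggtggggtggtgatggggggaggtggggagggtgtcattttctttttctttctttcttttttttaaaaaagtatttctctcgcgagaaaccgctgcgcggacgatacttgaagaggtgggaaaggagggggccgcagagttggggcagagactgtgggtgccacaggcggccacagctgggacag
Mfap2 chr4:141010174-141010473: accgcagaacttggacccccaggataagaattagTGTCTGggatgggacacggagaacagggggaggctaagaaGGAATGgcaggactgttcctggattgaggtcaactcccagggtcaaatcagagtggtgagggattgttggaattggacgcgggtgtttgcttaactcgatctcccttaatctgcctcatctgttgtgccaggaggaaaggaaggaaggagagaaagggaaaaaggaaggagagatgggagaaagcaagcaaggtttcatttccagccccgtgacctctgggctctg
Fbln5 chr12:101818435-101818734: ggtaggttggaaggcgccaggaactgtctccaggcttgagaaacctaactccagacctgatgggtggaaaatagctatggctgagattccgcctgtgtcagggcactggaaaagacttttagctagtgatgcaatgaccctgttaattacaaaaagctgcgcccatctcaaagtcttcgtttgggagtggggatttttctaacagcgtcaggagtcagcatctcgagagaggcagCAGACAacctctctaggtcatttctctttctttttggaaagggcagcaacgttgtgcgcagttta

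The motifs searched on both strands were GGGCGG (Sp1 type), TGANTCA (AP-1 type), CATTCC (TEAD type), CAGACA (SMAD type), TATAAA and the CArG box bound by serum response factor. The Fbn1 window held 1 GGGCGG, a motif found in 35.7% of all 32851 promoter windows of the same length. The Mfap2 window held 1 CATTCC and 1 CAGACA, found in 14.7% and 21% of windows, and the Fbln5 window held 1 CAGACA. No motif of this set was shared by the Fbn1 and Mfap2 windows shown. The Mfap2 entry not shown (141010431 to 141010730) held 2 GGGCGG, the motif of the Fbn1 window. The Fbln5 entry not shown also held 2, so this result depends on the entry chosen. CArG boxes, found in 1.63% of all windows, did not occur in the 3 windows shown. Such matches describe letters in the window and are not binding sites.

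Levels are in CPM, that is counts relative to a library size corrected by trimmed mean of M values (TMM), and errors are SD with n = 3 per group. Ogt, the deleted gene, had 93.3, 73.5 and 70.9 CPM in knockout replicates 1 to 3, against 177.4, 183.2 and 150 CPM in control replicates 1 to 3. Knockout libraries held 11845644 to 18218385 counts and control libraries 3038782 to 13738958. Control replicate 2 was the shallowest and stood apart in composition, with 10.2% of its counts in mitochondrial ribosomal RNA against 0.491% to 0.823% in the other 5 libraries. Counts per member and library ran from 25 for Mfap2 in that library to 78487 for Eln. In whole tissue, fewer cells of a type and less RNA per cell cannot be told apart. Summed smooth muscle markers (10 genes) came to 26084 to 30884 CPM in knockout and 31675 to 37763 CPM in control libraries. Without Tagln, itself called lower, the remaining 9 came to 23741 to 28014 CPM in knockout and 26101 to 31697 CPM in control libraries, and the ranges overlapped.

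Eln, the gene of the elastin core (ENSMUSG00000029675; GRCm38 chromosome 5, 134702593 to 134747323), was the most abundant member. It had 4372, 4138 and 4279.5 CPM in knockout replicates 1 to 3, against 4668, 6051.5 and 3651 CPM in control replicates 1 to 3. The knockout values lay close together and inside the control range, whose top value was control replicate 2. Its mean was 4263 ± 118 CPM in knockout and 4790 ± 1205 CPM in control libraries. The log2 fold change was -0.17, with a 95% interval from -0.63 to 0.29 (edgeR adjusted p = 0.652). Without control replicate 2 the log2 fold change was 0.04, so its direction rested on that library. Eln took 0.408% to 0.434% of all counts in knockout and 0.388% to 0.537% in control libraries. It supplied 65.3% to 68% of the counts of the 10 members in knockout and 60.7% to 71.6% in control libraries.

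**Figure D1:**
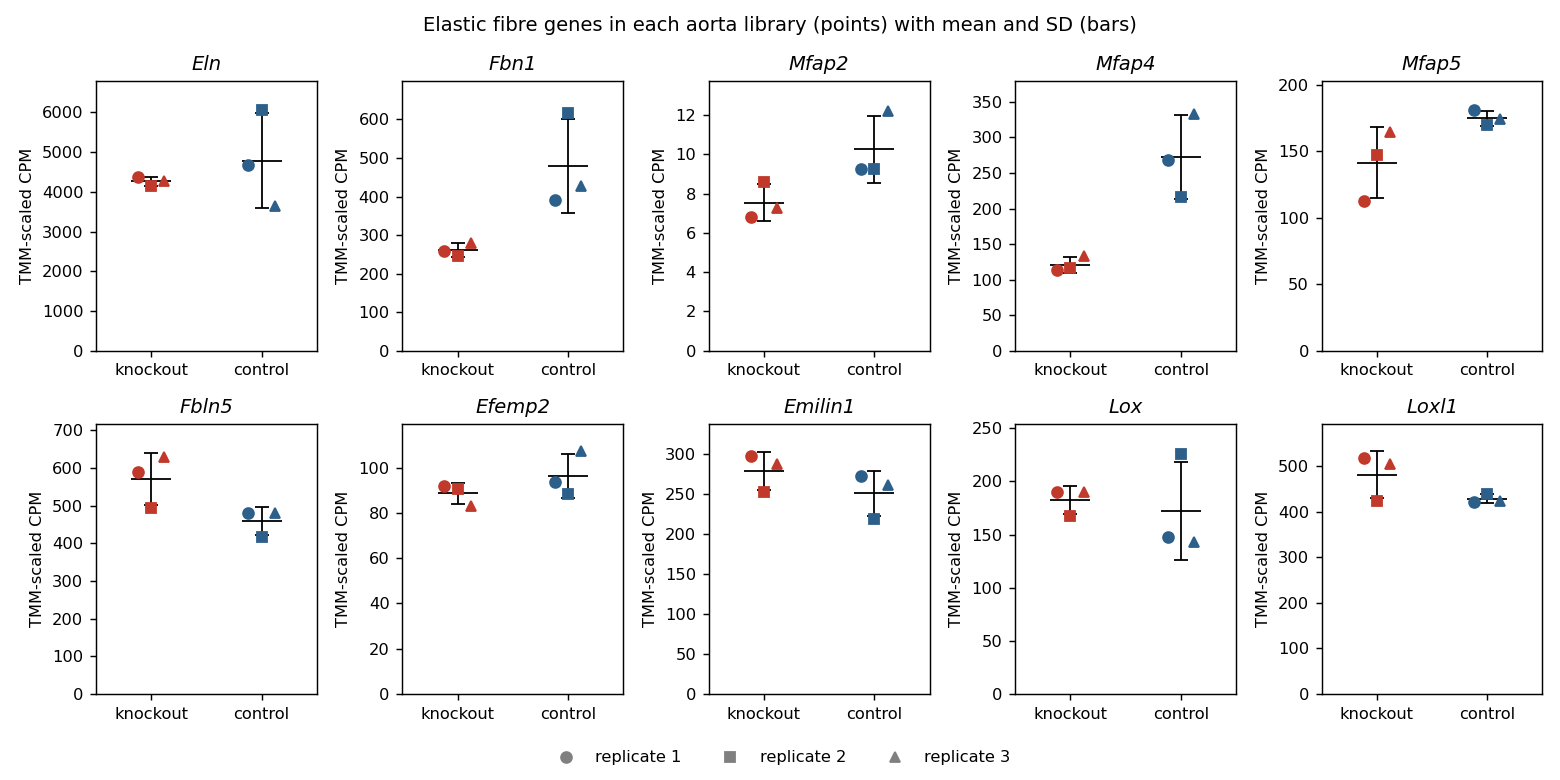
TMM-scaled CPM of each member (vertical axis, starting at 0, with its own scale per gene) in the 3 knockout and 3 control libraries, with mean and SD as bars. Knockout points lie below all control points for Fbn1, Mfap2, Mfap4 and Mfap5, above them for Fbln5, and overlap with them for the other 5 genes.

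Mfap4 encodes a fibrinogen-related glycoprotein of microfibrils that binds elastin and collagen and, despite its name, belongs to another protein family than Mfap2 and Mfap5 (ENSMUSG00000042436; chromosome 11, 61485431 to 61488900). Knockout replicates 1 to 3 had 113, 115.9 and 133.3 CPM, against 268.1, 216.5 and 333.7 CPM in control replicates 1 to 3. The highest knockout library was well below the lowest control library, and control values spread more widely than knockout values. Its mean level in knockout aorta was 44.3% of control, a log2 fold change of -1.18 ± 0.18 (SE), with a 95% interval from -1.59 to -0.77 and an edgeR adjusted p of 0.0259. The call was kept without control replicate 2 (adjusted p = 0.0146) or control replicate 3 (0.0403). It was lost without control replicate 1 (0.109) or knockout replicates 1, 2 and 3 (0.158, 0.139 and 0.0718), with log2 fold changes of -1.31 to -1.01 over the 6 fits. With the total count alone in place of TMM the adjusted p was 0.0505. The lowest control value was that of control replicate 2, the shallow library. Over all tested genes, the share called was 5.51% with control replicate 2 left out, 1.69% with control replicate 3, 0.0427% with control replicate 1, and 0.0723%, 0.0792% and 0.2% with knockout replicates 1 to 3 left out in turn. Mapk7, on the opposite strand, overlaps 89 bases of Mfap4 exons.

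Fbn1 encodes fibrillin-1, the main building block of microfibrils and the gene mutated in human Marfan syndrome (ENSMUSG00000027204; chromosome 2, 125300594 to 125507993). It had 257.6, 245.3 and 280.4 CPM in knockout replicates 1 to 3, against 390.6, 617.3 and 428.5 CPM in control replicates 1 to 3. The groups lay apart, and control replicate 2 was the highest library. Mean expression was 261.1 ± 17.8 CPM in knockout and 478.8 ± 121.5 CPM in control libraries, or 54.5% of control. The log2 fold change was -0.87 ± 0.19 (SE), with a 95% interval from -1.31 to -0.44, and the edgeR adjusted p of 0.0514 missed the threshold. It passed with DESeq2 (adjusted p = 0.00115, where 10% of all genes were called), with limma-voom (0.0396, 5.16%) and with edgeR when each library had to hold 10 or more counts of a gene (0.0465, 4.71%). It also passed with no count filter (0.0348, 1.75%) and without control replicate 2 (0.0302, 5.51%), where the log2 fold change was smaller at -0.64. In the other 5 fits that left out a library the adjusted p ran from 0.0645 to 0.222. Gm9913, on the opposite strand, overlaps 2442 bases of Fbn1 exons and had 2 to 12 counts per library.

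Mfap2 and Mfap5 encode the small glycoproteins MAGP-1 and MAGP-2, which decorate fibrillin microfibrils. Mfap2 was the least abundant member, with 6.81, 8.59 and 7.25 CPM in knockout replicates 1 to 3, against 9.28, 9.27 and 12.2 CPM in control replicates 1 to 3. Its highest knockout library and lowest control library were close, and control replicate 2 gave only 25 counts. The log2 fold change was -0.45, with a 95% interval from -0.91 to 0.00184 (edgeR adjusted p = 0.221). Mfap5 had 112.5, 147.6 and 164.5 CPM in knockout replicates 1 to 3, against 181, 169.8 and 174.4 CPM in control replicates 1 to 3. Here the knockout values were the more scattered, and knockout replicate 3 was nearest to the controls. Its log2 fold change was -0.31, with a 95% interval from -0.67 to 0.06 (edgeR adjusted p = 0.29). Neither gene was called under any of the 13 alternative settings.

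Fbln5 encodes fibulin-5, which tethers tropoelastin and lysyl oxidase-like 1 to cells and microfibrils and is required for intact elastic laminae in mice (ENSMUSG00000021186; chromosome 12, 101746565 to 101819055). It had 589.3, 493.9 and 628.3 CPM in knockout replicates 1 to 3, against 479.55, 416.8 and 480.2 CPM in control replicates 1 to 3. All knockout libraries were above all control libraries, with knockout replicate 2 close to the control values. The log2 fold change was 0.31 ± 0.14 (SE), with a 95% interval from -0.00680 to 0.63, and it did not pass the test (edgeR adjusted p = 0.228). Efemp2, or fibulin-4, which binds prolysyl oxidase and is required for elastic fibre formation in mice, had 83.0 to 91.9 CPM in knockout and 88.2 to 107.1 CPM in control libraries (log2 fold change -0.13, 95% interval -0.40 to 0.15). Emilin1, a glycoprotein found at the interface of elastin and microfibrils, had 252.45 to 297.5 CPM in knockout and 219.5 to 273 CPM in control libraries (log2 fold change 0.15, 95% interval -0.16 to 0.46). Neither passed the test (edgeR adjusted p = 0.575 for Efemp2 and 0.542 for Emilin1), and both pairs of ranges overlapped.

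The crosslinking enzymes did not pass the test. Lox, which oxidises lysine residues of tropoelastin and collagen, had 190.4, 167.6 and 189.8 CPM in knockout replicates 1 to 3, against 147.6, 225.8 and 143.1 CPM in control replicates 1 to 3. Control replicate 2 was above and the other control libraries were below the knockout values. The log2 fold change of Lox was 0.09, with a 95% interval from -0.35 to 0.54 (edgeR adjusted p = 0.818), and it was -0.01 without control replicate 1, 0.33 without control replicate 2 (adjusted p = 0.0951) and -0.02 without control replicate 3. Loxl1, the lysyl oxidase that fibulin-5 brings to elastin, had 517.5, 423.2 and 504.3 CPM in knockout replicates 1 to 3, against 422.2, 439.7 and 422.9 CPM in control replicates 1 to 3. Knockout replicate 2 lay among the control values and the other knockout libraries above them. Its log2 fold change was 0.17, with a 95% interval from -0.12 to 0.46 (edgeR adjusted p = 0.455).

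**Figure D2:**
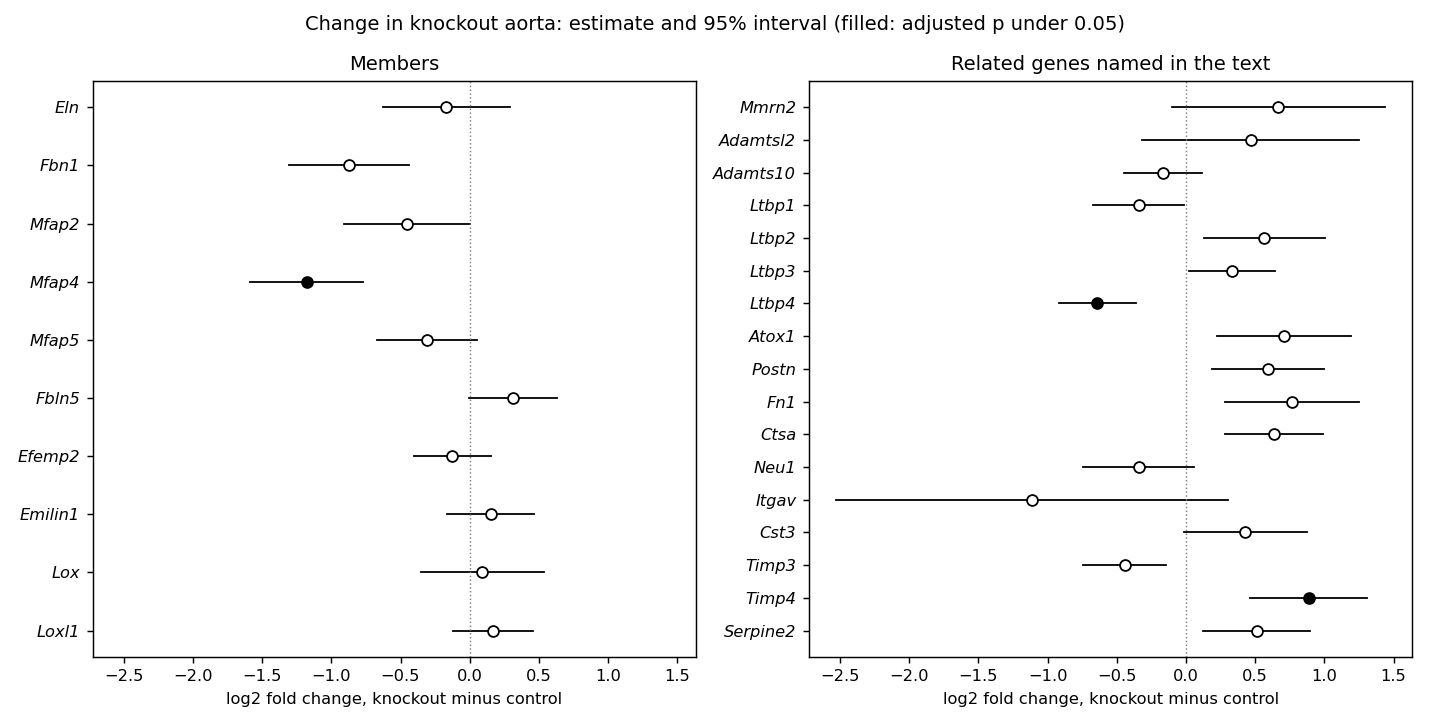
Log2 fold change, knockout minus control (horizontal axis), with its 95% interval for the 10 members (left) and the related genes named in the text (right), with filled points for an adjusted p under 0.05 in edgeR's test. Mfap4 at -1.18 is the filled member, and Ltbp4 at -0.64 and Timp4 at 0.89 are the filled related genes.

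The members were also set against Eln within each library, as the log2 ratio of counts, which does not depend on the scaling between libraries. The log2 ratio of Mfap4 to Eln was -5.27, -5.16 and -5.00 in knockout replicates 1 to 3, against -4.12, -4.80 and -3.45 in control replicates 1 to 3. That of Fbn1 was -4.09, -4.08 and -3.93 in knockout replicates 1 to 3, against -3.58, -3.29 and -3.09 in control replicates 1 to 3. Both ratios were lower in all knockout libraries, by 1.02 for Mfap4 and 0.71 for Fbn1 on the log2 scale. The Lox ratio moved the other way, at -4.52, -4.63 and -4.49 in knockout and -4.98, -4.74 and -4.67 in control replicates 1 to 3, a mean difference of 0.25. These 3 ratios had groups that did not overlap, and each gave an exact two-sided permutation p of 0.1, the smallest that 3 against 3 libraries allow, or 0.3 after adjustment over the 9 ratios. The other 6 ratios had exact permutation p-values of 0.2 to 1. All 9 ratios share the Eln counts of the same libraries and are not independent of each other. Each therefore carries the spread of Eln in control libraries, 3651 to 6051.5 CPM. The share of all tested genes whose ratio to Eln had groups apart was not computed, so the 3 cannot be judged against it.

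**Figure D3:**
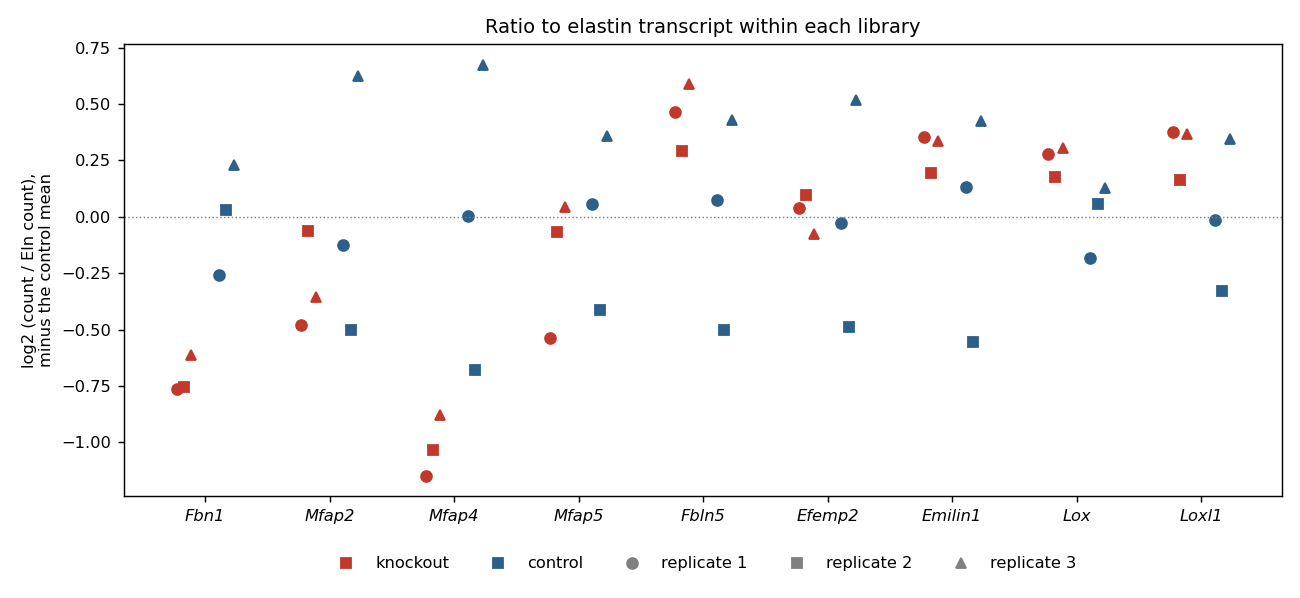
Log2 ratio of each member's count to the Eln count in the same library, with the control mean of that gene subtracted (vertical axis), for 3 knockout and 3 control libraries. Knockout points lie below all control points for Fbn1 and Mfap4 and above them for Lox.

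Levels can be compared between genes only per length, so the authors' FPKM (fragments scaled by gene length and library size) were used for the order of the members. In knockout libraries the order by mean FPKM was Eln (438.6 ± 14.3 FPKM), Loxl1 (145.5 ± 16.3), Fbln5 (69.1 ± 8.98), Mfap4 (45.7 ± 4.61), Emilin1 (34.1 ± 3.08), Mfap5 (28.1 ± 5.44), Lox (21.2 ± 1.65), Fbn1 (17.7 ± 1.39), Efemp2 (11.9 ± 0.537) and Mfap2 (4.53 ± 0.531). In control libraries it was Eln (489.2 ± 79.1 FPKM), Loxl1 (130.2 ± 10.2), Mfap4 (105.3 ± 31.0), Fbln5 (56.3 ± 9.79), Mfap5 (35.1 ± 4.41), Fbn1 (32.2 ± 4.67), Emilin1 (31.1 ± 6.31), Lox (19.7 ± 3.11), Efemp2 (13.1 ± 2.42) and Mfap2 (6.25 ± 1.46). Neighbours whose libraries overlapped were Emilin1 and Mfap5 in knockout, and Loxl1 and Mfap4, Mfap5 and Fbn1, and Fbn1 and Emilin1 in control. Compared within each library, Emilin1 was above Mfap5 in every knockout library and Loxl1 above Mfap4 in every control library. The order of Mfap5 and Fbn1, and of Fbn1 and Emilin1, changed between control libraries. Mfap4 stood 4th in knockout and 3rd in control libraries, and Fbn1 8th in knockout and 6th in control libraries. The FPKM values imply gene lengths above the merged GENCODE M21 exons for 9 of the 10 members, for example 9675 against 8098 bases for Eln. Per kilobase of merged exon, Mfap4 was 4th in knockout (62.8 ± 5.72 CPM per kilobase) and 2nd in control libraries (141.9 ± 30.6 CPM per kilobase), and Fbn1 was 9th in knockout and 7th in control libraries.

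Likeness of pattern was measured as the root-mean-square difference between log2 CPM profiles over the 6 libraries, each centred on its own mean. Among the members, Fbln5 and Emilin1 were most alike (0.10 log2 units), followed by Emilin1 and Loxl1 (0.12), Fbln5 and Loxl1 (0.12) and Eln and Lox (0.16). Mfap4 and Fbln5 were least alike (0.75). The search covered 9469 other genes with a mean of at least 10 CPM, leaving out genes with predicted, Riken or clone-style symbols. Those nearest to Mfap4 were Tagln (0.08), Tceal3 (0.13) and Zfp467 (0.13). Tagln, the gene of the actin-binding protein transgelin, had 2343, 2367 and 2869 CPM in knockout replicates 1 to 3, against 6065, 4249 and 6345 CPM in control replicates 1 to 3. The genes nearest to Eln were Atxn7l1 (0.04), Mrpl15 (0.04) and Ppat (0.05), all with their highest value in control replicate 2, as Eln had. In that library they had only 65, 59 and 39 counts, and Tceal3 and Zfp467 had 47 and 80. Such low counts make each value imprecise, and the differences printed are the smallest of 9469.

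A wider set of 61 related genes was described by the same fit, and 55 of them had enough counts to be tested. Of these 55, 1 rose, 1 fell and 53 did not pass the test, against 1.9% higher and 1.56% lower over all genes. At an unadjusted p under 0.05 there were 9 higher and 3 lower, against 11.5% of all tested genes higher and 11.3% lower. With the total count alone in place of TMM, 0 of the 55 passed in either direction. The median log2 fold change was 0.10, against -0.01 over all tested genes.

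Ltbp4 was the related gene that fell. It encodes a latent TGF-beta binding protein that is needed for elastic fibre assembly in mice and interacts with fibulin-5. It had 911, 892.7 and 818.2 CPM in knockout replicates 1 to 3, against 1403, 1290 and 1395 CPM in control replicates 1 to 3. The groups lay far apart, with little spread in either. The log2 fold change was -0.64 ± 0.12 (SE; edgeR adjusted p = 0.0404). The other 3 latent TGF-beta binding proteins did not pass: Ltbp1, which anchors latent TGF-beta to microfibrils, had a log2 fold change of -0.34 (adjusted p = 0.206), Ltbp2 0.57 (0.135) and Ltbp3 0.33 (0.191). By edgeR all 4 had an unadjusted p under 0.05, 2 lower and 2 higher, against 11.3% of all tested genes lower and 11.5% higher. Knockout libraries lay above control libraries for Ltbp2 and Ltbp3, and the groups overlapped for Ltbp1. Leaving out control replicate 2 kept the Ltbp4 call, and leaving out any other library ended it (adjusted p = 0.0701 to 0.191). It was also lost with no count filter (0.0881).

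Timp4, an inhibitor of metalloproteases, was the related gene that rose. It had 70.4, 61.9 and 67.4 CPM in knockout replicates 1 to 3, against 26.9, 41.9 and 40.3 CPM in control replicates 1 to 3 (log2 fold change 0.89 ± 0.18 SE, edgeR adjusted p = 0.046). All knockout libraries were above all control libraries. Of the 14 tested elastin-degrading enzymes and inhibitors the other 13 did not pass in edgeR's test, among them the inhibitor Timp3 (log2 fold change -0.44, adjusted p = 0.1) and the protease inhibitors Serpine2 (0.51, 0.128) and Cst3 (0.43, 0.233). DESeq2 called Timp3 lower (adjusted p = 0.00804) and Serpine2 higher (0.0459) beside Timp4, and limma-voom called Timp4 alone. The shares called over all tested genes were 10% with DESeq2 and 5.16% with limma-voom. The Timp4 call too stood without control replicate 2 and was lost without control replicate 1 or 3 or any knockout library (adjusted p = 0.0616 to 0.199).

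Fn1 and Postn are matrix genes whose proteins take part in activating lysyl oxidase, and they came with the other lysyl oxidases and their copper supply in a list of which 0 of 12 tested genes passed the threshold. By edgeR 4 of these 12 had an unadjusted p under 0.05, all higher, against 11.5% of all tested genes higher. Fn1, fibronectin, had 5697, 4409 and 5863 CPM in knockout replicates 1 to 3, against 3025, 3888 and 2474 CPM in control replicates 1 to 3 (log2 fold change 0.77, edgeR adjusted p = 0.0862, and 0.96 and 0.0387 without control replicate 2). Postn, periostin, had 2179 ± 342 CPM in knockout and 1445 ± 209 CPM in control libraries (log2 fold change 0.59, adjusted p = 0.104). In both genes the knockout libraries lay above the control libraries, and DESeq2 gave adjusted p-values of 0.00885 for Fn1 and 0.0223 for Postn. Atox1, a copper chaperone, had a log2 fold change of 0.71 (edgeR adjusted p = 0.103, DESeq2 adjusted p = 0.0325). DESeq2 called these 3 and no other gene of the list, and limma-voom called 0.

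The list of other microfibril and elastic fibre proteins gave 0 calls among 17 genes, of which edgeR gave 0 an unadjusted p under 0.05, and the groups overlapped in all 17. The nearest to the threshold were Mmrn2, a multimerin of endothelium (log2 fold change 0.67, adjusted p = 0.28), Adamtsl2, which binds fibrillin (0.47, 0.449), and the microfibril-binding protease Adamts10 (-0.17, 0.455). The elastin receptor complex and elastin secretion list also gave 0 calls among 8, with 1 at an unadjusted p under 0.05. That gene was Ctsa, the protective protein of the receptor complex, with 224.7 ± 20.5 CPM in knockout and 144.3 ± 23.6 CPM in control libraries (log2 fold change 0.64, edgeR adjusted p = 0.067). The receptor's sialidase Neu1 had a log2 fold change of -0.34 (adjusted p = 0.287) and the integrin subunit Itgav -1.11 ± 0.58 (SE; adjusted p = 0.319). Itgav had 157.8, 37.8 and 39.3 CPM in knockout replicates 1 to 3, against 169.6, 190.95 and 146.3 CPM in control replicates 1 to 3. Knockout replicate 1 alone lay within the control range. Without that library the log2 fold change was -2.12 and Itgav was called lower (edgeR adjusted p = 0.0289), and it was -0.77 without knockout replicate 2 and -0.78 without knockout replicate 3. DESeq2, which called 10% of all tested genes, called 0 genes of the microfibril list and Ctsa alone of the receptor list. The limma-voom fit, which called 5.16%, called 0 in both.

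Adventitial fibroblasts also make microfibril proteins, so their markers are given beside these results. Of 12 fibroblast markers 0 were called by edgeR and 2, Pdgfra and Col3a1, had an unadjusted p under 0.05, both lower. DESeq2, which called 10% of all tested genes, called Col3a1 alone, and limma-voom, which called 5.16%, called 0. Their summed level was 6736 to 7348 CPM in knockout and 6827 to 9420 CPM in control libraries, and the ranges overlapped. Log2 fold changes were -0.41 for Pdgfra and -0.54 for Col3a1. Of 10 smooth muscle markers, edgeR called 1 lower, Tagln, against 1.56% of all tested genes lower, and 9 were not called. Log2 fold changes were negative for 8 of the 10, against 8280 of the 16139 tested genes. They were also negative for 8 of 10 adipocyte and 6 of 12 fibroblast markers. Positive ones were 8 of 10 endothelial, 10 of 10 macrophage and 6 of 6 nerve markers. Tagln passed with control replicate 2 left out and did not pass with any other single library left out (adjusted p = 0.0588 to 0.186) or with the total count alone (0.0632). At an unadjusted p under 0.05 there were 4 smooth muscle markers, with Tagln, Smtn (log2 fold change -0.35) and Synpo2 (-0.61) lower and Des (0.61) higher. The shares over all tested genes at this threshold were 11.3% lower and 11.5% higher. DESeq2 called Tagln and Synpo2 lower, and limma-voom called Tagln alone. Acta2 had a log2 fold change of -0.04 (95% interval -0.44 to 0.35) and Myh11 -0.32 (-0.68 to 0.04). The part of cell makeup in the values of Mfap4, Fbn1 and Ltbp4 was not tested.

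Summed endothelial markers (10 genes) came to 734.7 to 1667 CPM in knockout and 846.5 to 1028 CPM in control libraries. Macrophage markers (10 genes) came to 432 to 531.3 CPM in knockout and 205 to 640 CPM in control libraries. Adipocyte markers (10 genes) came to 951.7 to 1282 CPM in knockout and 1050 to 1494 CPM in control libraries. These 3 pairs of ranges overlapped, and 0 endothelial, 0 macrophage and 1 adipocyte marker (Ucp1, lower) were called by edgeR, with 0, 0 and 3 at an unadjusted p under 0.05. The 3 adipocyte markers were 2 lower and 1 higher, against 11.3% of all tested genes lower and 11.5% higher. Mesothelial markers (8 genes) came to 28.6 to 36.8 CPM in knockout and 13.0 to 19.1 CPM in control libraries and chondrocyte markers (8 genes) to 123.2 to 151.6 CPM in knockout and 84.1 to 114.6 CPM in control libraries, in each case with knockout libraries above control libraries. In each of these lists 1 gene was called higher, Krt18 for mesothelium and Acan for cartilage, and without these genes the ranges overlapped. The mesothelial sum without Krt18 was 0.706 to 3.54 CPM in knockout and 0.945 to 2.60 CPM in control libraries, and the chondrocyte sum without Acan was 61.2 to 79.4 CPM in knockout and 61.9 to 95.7 CPM in control libraries. The cartilage marker Matn1 had 0 counts in every library. Nerve and Schwann cell markers (6 genes) came to 26.3 to 44.8 CPM in knockout and 18.5 to 37.8 CPM in control libraries, with 0 called. At an unadjusted p under 0.05 there was 1 of these 6, higher, against 11.5% of all tested genes higher. DESeq2 and limma-voom also called 0 endothelial, 0 macrophage and 0 nerve markers.

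**Figure D4:**
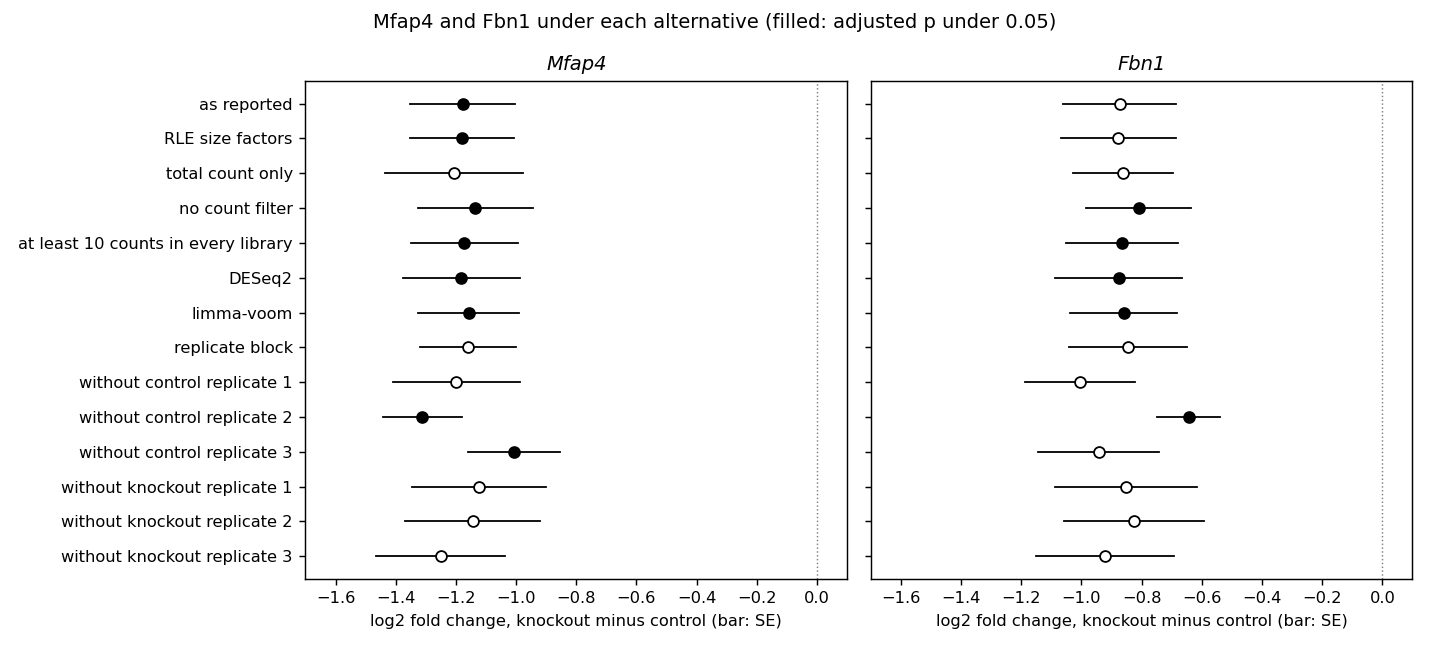
Log2 fold change of Mfap4 (left) and Fbn1 (right), knockout minus control (horizontal axis, bars are SE), in the fit reported and under 13 alternative settings, with filled points for an adjusted p under 0.05. All values are negative, from -1.31 to -1.01 for Mfap4 and from -1.004 to -0.64 for Fbn1, and the call depends on the setting.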

How the data were processed

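RNA from whole aorta was sequenced in 3 knockout and 3 control libraries, grouped by sample title. For every gene and library the deposited table holds a count of reads and an FPKM, per the file headers. Deposited counts were whole numbers, and their totals differed between libraries. Deposited FPKM were those counts scaled by library total and by a gene length that was the same in all libraries (checked over 7705 genes, largest relative spread 1.4e-05). Per the submitters' processing notes, the tools were CASAVA 1.8, HISAT2, SAMtools 1.3.1 and edgeR. Which program counted reads, with which annotation and strand setting, is not given in the sources used here, so reads of overlapping antisense genes are uncertain. These notes name the build GRCm39, yet all 10 members have the positions of GENCODE M21 on GRCm38, and positions are given as such.

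Counts were filtered with filterByExpr, scaled by TMM and fitted over all genes with edgeR 4.0.16 in R 4.3.3 (glmQLFit with robust estimation, glmQLFTest), with no covariate, Benjamini-Hochberg adjustment over 16139 genes and a threshold of 0.05. The alternatives used DESeq2 1.42.0, limma 3.58.1, other scalings and filters, a replicate block and fits without each library. Intervals are 95% from the same fit. Likeness profiles used log2 of CPM plus 1. The steps were tested on simulated data. The members, related genes, markers and promoter motifs were chosen with earlier results of these data known, and no list test was run. Genes named are the members, Ogt, Acta2, Myh11, Tagln, the called genes and up to 3 others with the smallest p of each related list, and the 3 nearest profiles of Eln and of the called member. Markers named by symbol (Pdgfra, Col3a1, Smtn, Synpo2, Des, Ucp1, Krt18, Acan and Matn1) are outside this rule and were picked with their values known.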

Additional observations from a re-analysis of the deposited data

How the results depend on the processing

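Log2 fold changes kept their direction under all 13 alternatives for 8 of the 10 members. The exceptions were Eln (-0.33 to 0.042 when a library was left out, positive without control replicate 2) and Lox (-0.023 to 0.33, negative without control replicate 1 or 3). Acta2, at -0.04 as reported, was 0.0041 with no count filter and -0.14 to 0.068 when a library was left out, positive without control replicate 1 or knockout replicate 1 or 2. Members called lower, 1 as reported, were 2 (Mfap4 and Fbn1) with no count filter, at least 10 counts in every library, DESeq2 or limma-voom, 0 with the total count alone or the replicate block, and 0 to 2 when a library was left out; members called higher were 0 throughout. Over all genes, 306 higher and 251 lower as reported, the counts were 94 and 99 with the total count alone and 755 and 735 with DESeq2, limma-voom gave 416 lower, and leaving out a library gave 4 to 491 higher and 3 to 420 lower. Related genes called, 1 higher and 1 lower as reported, were 0 and 0 with the total count alone, 6 and 2 with DESeq2, 0 lower with no count filter (Ltbp4 lost), and 0 to 2 higher and 0 to 1 lower when a library was left out. With the total count alone the adjusted p of Mfap4 was 0.0505. The cause of these changes was not tested.

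Titles number the replicates 1 to 3 in both groups, and no label says whether the numbers pair animals. The file headers give every library a different number, with none shared between the groups. Title numbers follow the order of these header numbers within each group, so titles and headers name no pairs. The replicate block takes the title numbers as pairs, which no label states. Deviations from group means correlated between same-numbered libraries at 0.05, 0.10 and -0.07 over genes. Differently numbered libraries gave -0.11 to 0.11. With 3 libraries per group and overlapping values, this comparison cannot decide whether the numbers pair the libraries. With the replicate block, 18 genes were higher and 10 lower over all genes, 0 members and 0 related genes were called in either direction, and Mfap4 had an adjusted p of 0.0572 (log2 fold change -1.16). The lowest member count was 25, for Mfap2 in control replicate 2. Leaving out that library changed the SE from 0.195 to 0.196 for Mfap2, from 0.187 to 0.104 for Fbn1, from 0.191 to 0.0980 for Lox and from 0.197 to 0.145 for Eln. An outlier test was not run, since each group has 3 libraries.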
